A study of Mus musculus with 73 samples.

Results

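The Pi16 Igfbp6 fibroblasts described here were 68 single cells from the mouse jejunum, of 325 mesenchymal cells and 2347 cells of all kinds. They were chosen from the single-cell table by their own counts of unique molecular identifiers (UMIs, each standing for 1 captured mRNA molecule). A well was kept as a cell with 400 to 8000 UMIs and at least 250 detected genes. A cell was mesenchymal when it had UMIs of at least 2 of the 6 genes *Pdgfra*, *Dcn*, *Lum*, *Col1a1*, *Col1a2* and *Col3a1* and none of *Ptprc*, which encodes the leukocyte antigen CD45. A mesenchymal cell was a Pi16 Igfbp6 fibroblast when its summed UMIs of *Igfbp6*, *Ly6c1*, *Penk*, *Pi16* and *Cd248* exceeded those of *C3*, *C4b*, *Sfrp1*, *Cxcl12* and *Grem1* and also those of *Acta2*, *Tagln*, *Myh11* and *Ednrb*. Cells in which the second sum was the largest are called crypt-type (173 cells), and those in which the third was the largest are called contractile (48 cells). The other 36 mesenchymal cells were tied (15) or had no UMI of the 14 genes (21).

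The study examined which stromal cells lie along the crypt-villus axis of the jejunum. Single cells came from 8 C57BL/6 male mice aged 3 months by the labels, sorted by gates on PDGFRa, EPCAM, CD45, CD31 and NT5E into 384-well plates and sequenced with MARS-seq. Stroma of 4 zones was laser-capture microdissected (LCM) from 5 C57BL/6 mice of the same age. The labels give no treatment for either set. Epithelium came from mice of the strain Lgr5(GFP-ires-DTR/+) aged 4 months, 4 of them collected 48 h after diphtheria toxin (DT) and 4 controls given vehicle. All 8 of these mice carried the knock-in of green fluorescent protein and the toxin receptor at the *Lgr5* locus, so the receptor is present in every cell that uses the *Lgr5* promoter, in the epithelium as in the stroma. In one of the dissociation protocols of the single cells the villi were scraped off before the stroma was digested, and the labels do not tell which plates it served.

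Fibroblasts build the collagen, elastic fibre and proteoglycan matrix of the gut wall and send signals to the epithelium above them. Fibroblasts with *Pi16*, *Cd34*, *Ly6a* and *Dpp4* are known from many organs, where they lie in the adventitia around vessels and in fascia. Telocytes are *Pdgfra*-positive cells with long thin processes directly under the epithelium, known in the gut for Foxl1, BMP ligands and Wnt ligands.

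The sum of the 5 defining genes in the 68 cells had a median of 7 UMIs and ranged from 1 to 29. The crypt-type sum in the same cells had a median of 1 UMI and reached 17, and 21 of the 68 cells had none of it. The contractile sum was 0 in all 68 cells. These values chose the cells and are given as a description. At the edge of the rule, 8 cells passed by 1 UMI and 11 by 2, whereas 26 passed by 6 or more. Just outside it, 12 cells with a UMI of the 5 genes were tied with another sum, and a further 12 missed by 1 UMI. The classes therefore meet without a gap, and a cell near the edge is placed by a single molecule.

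**Figure D1:**
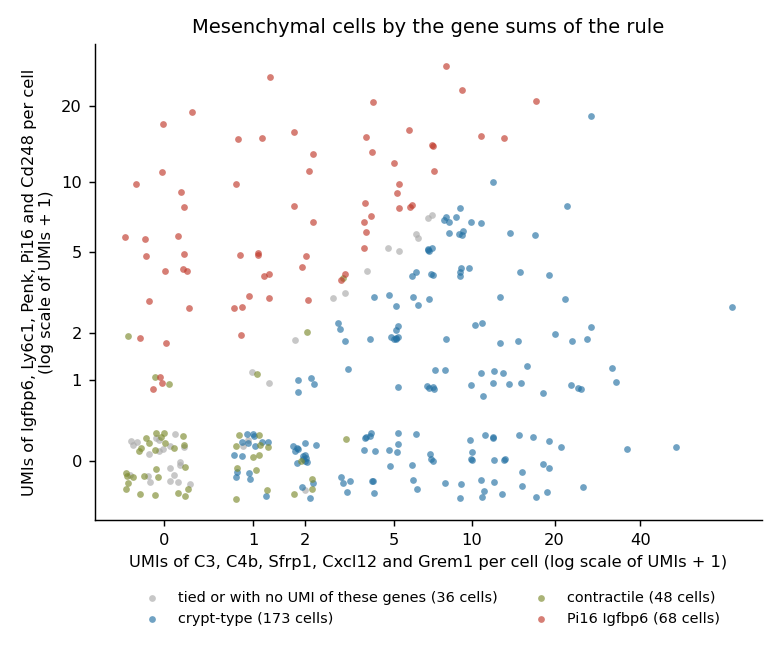
Each point is 1 of the 325 mesenchymal cells, with UMIs of the 5 crypt-type genes on the x axis and of the 5 Pi16 Igfbp6 genes on the y axis, both as log scales of UMIs + 1 with a small random shift so that points do not cover each other. The 68 Pi16 Igfbp6 cells (red) run from 1 to 29 UMIs on the y axis and border directly on the 173 crypt-type cells (blue).

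*Igfbp6* (chr15:102144362-102149511, plus strand, GRCm38), which encodes a secreted protein that binds insulin-like growth factors with a preference for IGF2, was the most widely detected of the 5 genes. It had 30 UMIs in the 13 Pi16 Igfbp6 cells of mouse A and 194 in the 52 of mouse G, or 211 and 236 per 100000 UMIs. Crypt-type cells held 24.1 per 100000 in mouse A, 13.99 in mouse E and 57.8 in mouse G, and the contractile cells of mouse A held none. A UMI of *Igfbp6* was seen in 57 of 68 Pi16 Igfbp6 cells (83.8%) and in 52 of 173 crypt-type cells (30.1%). With every cell thinned to 400 UMIs, so that depth was equal, the shares were 54.5% and 14.2%. In 1564 epithelial cells, which should lack these genes and were read more deeply (median of 1793 UMIs against 1255), 0.0639% had a UMI of *Igfbp6*.

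*Cd248* (chr19:5068078-5070682, plus strand) encodes endosialin, a surface glycoprotein of fibroblasts and pericytes. Its level was 204 per 100000 UMIs in the Pi16 Igfbp6 cells of mouse A and 160 in mouse G, against 13.99 to 30.5 in the crypt-type cells of mice A, E and G. It was detected in 43 of the 68 cells (63.2%; 37.0% after thinning) and in 31 of 173 crypt-type cells (17.9%; 7.11% after thinning). *Pi16* (chr17:29317680-29330593, plus strand), a peptidase inhibitor that names adventitial fibroblasts in other organs, was the scarcest. It had 4 UMIs in mouse A and 29 in mouse G, or 28.1 and 35.2 per 100000, and was seen in 11 of 68 cells (16.2%) and in 4 of 173 crypt-type cells (2.31%). All 11 cells with *Pi16* also had *Igfbp6*, and 10 of them had *Ly6c1*. *Penk* (chr4:4133531-4138819, minus strand), the precursor of the enkephalin peptides, set the cells apart least. It stood at 105.4 per 100000 in mouse A and 52.3 in mouse G, while crypt-type cells ranged from 0 in mouse E to 37.7 in mouse G, and the contractile cells of mouse A held 24.4.

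*Ly6c1* (chr15:75044018-75048830, minus strand) encodes a small surface protein anchored by a lipid, best known from endothelium and lymphocytes. It stood at 98.4 per 100000 UMIs in the Pi16 Igfbp6 cells of mouse A and 114 in those of mouse G. The crypt-type cells held 10.9 in mouse A, 0 in mouse E and 22.7 in mouse G. The gene has a near-identical neighbour, *Ly6c2*, and the reads of a method that samples the end of the mRNA can be hard to divide between them. Of 396 coding bases in each, 387 were identical (97.7%). The last 120 coding bases, shown here because they are the coding bases nearest to the sampled end, differed at 2, given in capitals. The annotated genes run on past these bases, to chr15:75044018 for *Ly6c1* and chr15:75108158 for *Ly6c2*. That end of the mRNA, which such a method samples most, was not compared. The sequences are those of the GENCODE transcripts on GRCm38, 5′ to 3′ on the minus strand, from chr15:75045402-75045521 for *Ly6c1* and chr15:75108543-75108662 for *Ly6c2*.
Ly6c1: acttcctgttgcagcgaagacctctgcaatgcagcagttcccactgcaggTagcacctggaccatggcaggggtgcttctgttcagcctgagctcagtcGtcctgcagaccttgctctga
Ly6c2: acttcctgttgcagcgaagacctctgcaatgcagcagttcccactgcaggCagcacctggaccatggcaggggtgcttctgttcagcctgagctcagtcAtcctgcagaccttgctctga
In the 68 cells, *Ly6c1* had 117 UMIs and *Ly6c2* had 58. A UMI of *Ly6c1* was seen in 44 cells and of *Ly6c2* in 34, and 33 cells had both. How well the UMIs were divided between both genes was not tested, and the division stays uncertain. With *Ly6c1* left out of the sum 58 of the 68 cells were still chosen.

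The 5 genes were spread unevenly over the cells. All 5 were detected in 4 cells, 4 in 15 cells, 3 in 18, 2 in 21 and a single one in 10. *Igfbp6* and *Ly6c1* were found together in 40 of the 68 cells, and *Igfbp6* and *Cd248* in 37. *Penk* and *Ly6c1* shared 16 cells, of 31 and 44 with each gene. Of the crypt-type genes, *C3*, the central complement component, was also common in the Pi16 Igfbp6 cells. It was seen in 46 of 68 (67.6%) at 253 per 100000 in mouse A and 154 in mouse G, against 238 to 465 in the crypt-type cells of mice A, E and G. *Grem1*, a secreted BMP antagonist, counts against membership by the rule and had no UMI in the 68 cells, which limits the share of cells with a UMI, not of cells that use the gene, to 4.41%. It was seen in 48 of 173 crypt-type cells (27.7%). Intervals and such limits cover counting error only.

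**Figure D2:**
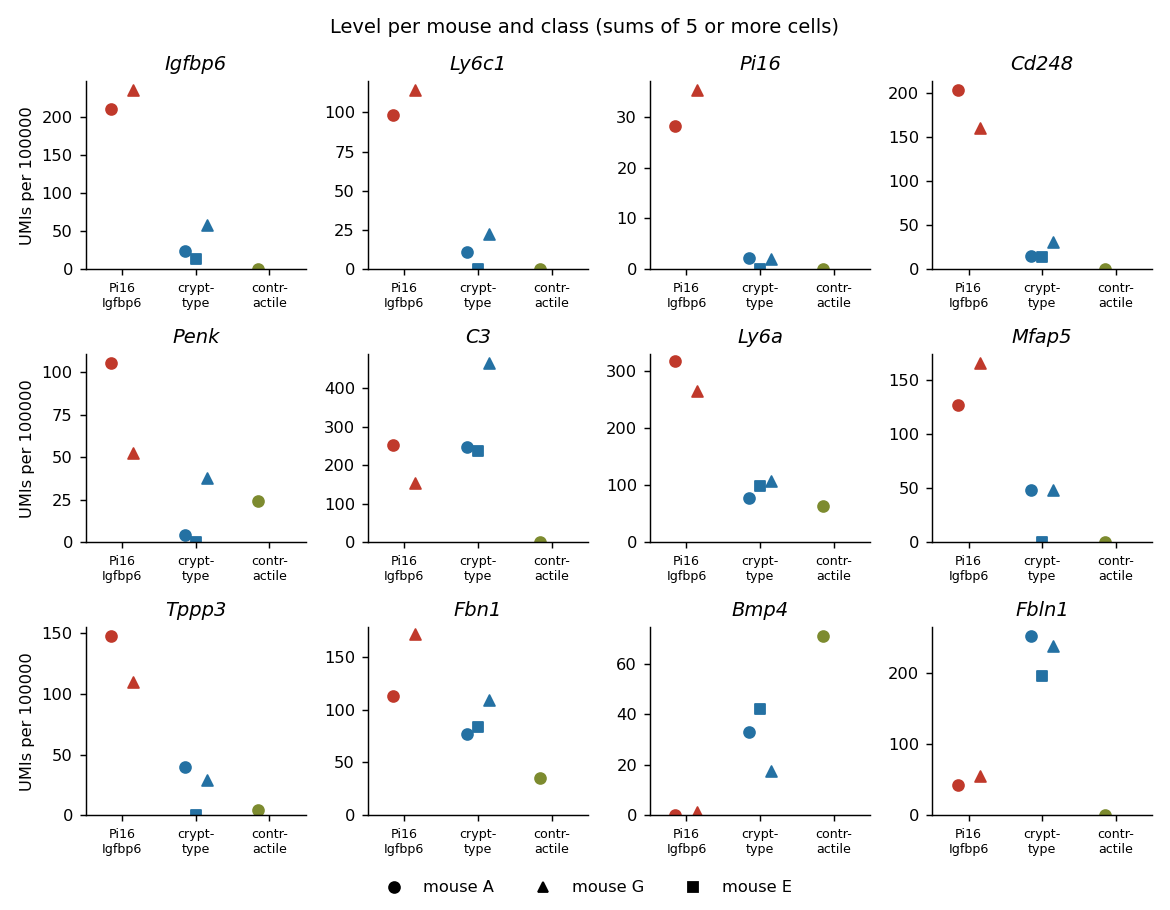
Each panel gives 1 gene, with the level in UMIs per 100000 on the y axis and the class of cells on the x axis, and each point is the sum over the cells of 1 mouse (circle, mouse A; triangle, mouse G; square, mouse E) where that mouse had 5 or more cells of the class. *Igfbp6* lies at 211 and 236 in the Pi16 Igfbp6 cells and at 13.99 to 57.8 in the crypt-type cells, whereas *Fbln1* and *Bmp4* lie lower in the Pi16 Igfbp6 cells.

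Most of the cells came from few sources. Mouse G gave 52 of its 194 mesenchymal cells (26.8%, exact 95% interval 20.7 to 33.6%) and mouse A 13 of 111 (11.7%, 6.39 to 19.2%). Mice B, E and H gave 1 cell each, and the other 3 mice gave none. A single plate of the gate PdgfraSinglets in mouse G held 44 of the 68 cells (64.7%) and 168 of all 325 mesenchymal cells. In mouse A, 10 of the 13 cells came from gates for doublets of PDGFRa-positive cells with EPCAM-positive or NT5E-positive cells, in which 10 of 79 mesenchymal cells (12.7%) were of this kind, against 3 of 32 (9.38%) in its other gates. No doublet caller was run, since these gates were set to hold cell pairs. The 35 plates shared the same 384 well barcodes, and a cell was told apart by plate and barcode together.

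The rule fixes that the defining genes are present in sum, so their levels by source are a description with no test. *Igfbp6* stood at 212 per 100000 UMIs on the plate with 44 cells, 348 in the 8 cells from other plates of mouse G and 244 in the 10 cells from the doublet gates of mouse A. In the 3 cells from other gates of mouse A it was 94.3, from 3 UMIs, and in the 3 cells of mice B, E and H it was 29.1, from 1 UMI. *Pi16* had no UMI in the other gates of mouse A or in mice B, E and H. *Cd248* stood at 177, 83.6, 217, 157 and 87.2 in the same order, and *Penk* at 47.1, 76.6, 90.5, 157 and 87.2. *Dcn*, the proteoglycan decorin, was found in all 44 cells of the large plate and in 8 of the 10 doublet-gate cells. Depth differed with source, with a median of 1446 UMIs per cell on the large plate and 964 in the doublet gates.

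The 68 cells were looked up for telocyte genes. The paper gives the label villus tip telocytes to a cluster of its own, found without the rule used here. That cluster held most of its *Lgr5*-positive mesenchymal cells, and hybridization in tissue placed *Lgr5* and *Bmp4* in PDGFRa-positive tip cells. By hybridization the paper also reports raised *Ly6a* and *Angptl4* in villus tip telocytes. From its single cells it reports raised *Mfap5*, *Emilin2*, *Fbn1* and *Wnt5a* in them. The values of these genes in the 68 cells are given below, most of them with the gene lists. Its single cells had more *Bmp4* in crypt telocytes, which it proposes may come from low capture of tip cell transcripts. The counts below therefore do not test that label. *Lgr5* was seen in 1 of 68 Pi16 Igfbp6 cells (1.47%, exact 95% interval 0.0372 to 7.92%), in 6 of 173 crypt-type cells (3.47%), in 0 of 48 contractile cells and in 3.2% of epithelial cells. From 1 UMI no difference between the classes can be read. *Bmp4*, a BMP ligand, was seen in 1 of 68 cells, against 34 of 173 crypt-type and 19 of 48 contractile cells. *Gli1*, *Sox6*, *Foxf2*, *Bmp3* and *Tnc* had no UMI in the 68 cells. In the contractile cells *Foxf2* was seen in 10 of 48, *Bmp3* in 12, *Bmp5* in 17, *Bmp7* in 14, *Sox6* in 6 and *Tnc* in 18. *Foxl1* was not in the single-cell table and was not analysed here. *Pdgfra*, the receptor used for sorting, was found in 25 of 68 Pi16 Igfbp6 cells (36.8%) and in 32 of 48 contractile cells (66.7%). *Wnt5a*, a non-canonical Wnt ligand, was seen in 9 of 68 cells (13.2%), in 10 of 173 crypt-type cells (5.78%) and in 11 of 48 contractile cells (22.9%). *F3*, tissue factor, was seen in 7 of 68 cells, in 14 of 173 crypt-type cells and in 5 of 48 contractile cells. Of the telocyte genes named here, *Pdgfra*, *Wnt5a* and *F3* were seen in more than 3 of the 68 cells. The name Pi16 Igfbp6 fibroblasts comes from genes of the rule and gives no verdict on the paper's label.

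All other genes were compared between the classes on UMIs summed per mouse, where a mouse had 5 or more cells of the class. The sums were Pi16 Igfbp6 cells of mice A and G, crypt-type cells of mice A, E and G, and contractile cells of mouse A alone, whose spread was assumed to be like that of the other sums. Since the classes were cut from the UMIs of the same cells, genes that vary together with the rule genes are not independent of the rule, and the fold changes are a description of the classes. The test says only whether a difference exceeded the spread between mice. Of 5223 genes tested with edgeR's quasi-likelihood test, 1 (0.0191%) passed an adjusted p of 0.05 between Pi16 Igfbp6 and crypt-type cells, and 274 (5.25%) had an unadjusted p under 0.05. Between Pi16 Igfbp6 and contractile cells 9 genes (0.172%) passed, and 339 (6.49%) had an unadjusted p under 0.05. DESeq2 called 5 and 21 genes in these comparisons.

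*Tmem176b* (chr6:48833818-48841496, minus strand), a membrane protein studied in antigen-presenting cells, was the gene that fell against the crypt-type cells. It had 1 UMI in the Pi16 Igfbp6 cells of mouse A and 6 in those of mouse G, or 7.03 and 7.29 per 100000. The crypt-type cells held 228 per 100000 in mouse A, 182 in mouse E and 83.2 in mouse G, and the contractile cells of mouse A held 126. The classes did not overlap, with a log2 fold change of -4.31 ± 0.93 (SE, adjusted p = 0.0204, edgeR) against crypt-type cells. A UMI of *Tmem176b* was seen in 4 of 68 Pi16 Igfbp6 cells and in 81 of 173 crypt-type cells. The call was lost without mouse A (-3.78, adjusted p = 0.999, edgeR), without mouse G (-4.83, adjusted p = 0.207, edgeR) and without the doublet gates (-3.72, adjusted p = 1, edgeR), with the same sign each time.

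Against the contractile cells of mouse A, *Mgp*, *Mfap5* and *Gsn* rose (3 genes, where 0.0574% of all genes did). *Gsn*, the actin-severing protein gelsolin, stood at 654 per 100000 in the Pi16 Igfbp6 cells of mouse A and 939 in mouse G, against 31.0 in the contractile cells (log2 fold change 4.52 ± 1.13, adjusted p = 0.0444, edgeR). Crypt-type cells held as much *Gsn*, with 639, 462 and 992 per 100000 in mice A, E and G. *Mfap5*, a microfibril protein, had 18 and 136 UMIs in the Pi16 Igfbp6 cells of mice A and G and none in the contractile sum, which makes it at least 24.0-fold higher when 3 UMIs over the contractile sum are taken as the limit. *Mgp*, the matrix Gla protein that inhibits calcification, was at least 21.0-fold higher on the same footing, with 197 and 130 per 100000 in mice A and G. It was higher still in crypt-type cells, with 558, 867 and 463 per 100000. The 4 contractile cells of mouse G, too few for the sum, held *Mgp*, and the log2 fold change against contractile cells dropped from 9.37 to 2.60 when they were added (adjusted p = 0.543, edgeR).

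Lower than in the contractile cells were *Tnc*, *Mylk*, *Angptl1*, *Bmp4*, *Adamdec1* and *Tmem176b*, which fell with adjusted p of 0.0144 to 0.0476 (edgeR), 6 genes where 0.115% of all genes did. *Tnc*, the matrix protein tenascin C, had no UMI in the Pi16 Igfbp6 sums and 34 in the contractile sum, at least 24.2-fold lower. *Mylk*, the myosin light chain kinase of smooth muscle, was at least 19.2-fold lower and *Angptl1* at least 15.0-fold lower. *Bmp4* had 1 UMI in the Pi16 Igfbp6 sums and stood at 70.9 per 100000 in the contractile cells (log2 fold change -5.94 ± 1.49). *Adamdec1*, a metalloprotease of gut stroma, stood at 56.2 per 100000 in the Pi16 Igfbp6 cells of mouse A and at 0 in mouse G, against 733 in the contractile cells. In crypt-type cells *Adamdec1* differed as much between mice, with 633, 826 and 18.2 per 100000 in mice A, E and G. Of the 9 genes that rose or fell against contractile cells, 4 still passed without mouse G and 2 without the doublet gates, and the whole count was 4 without mouse G and 77 without mouse E. With 2 cells needed per sum, which adds the contractile cells of mouse G, none of 5322 genes passed in edgeR and 439 had an unadjusted p under 0.05.

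Most adventitial fibroblast genes had a higher fitted level in the Pi16 Igfbp6 cells than in crypt-type cells, none past the adjusted p. Of 22 listed genes 19 were tested, and 17 of these had a higher fitted level than in crypt-type cells, with a median log2 fold change of 0.99 against -0.02 over all 5223 genes. In both mice A and G 13 of the 19 were higher and 2 lower, where 20.8% of all genes were higher in both and 27.8% lower in both. Within mouse A the median log2 ratio of the list was 1.502, and within mouse G it was 0.74. None of the 19 passed the adjusted p against crypt-type cells in edgeR, and 5 had an unadjusted p under 0.05, all higher, where 1.24% of all genes were higher at that p. This list and those below were chosen with earlier results of these data known. Their genes may also vary together with the rule genes, so the shares describe the classes and test nothing. Mouse G contributed most of the UMIs, and both mice contributed to every gene named here.

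*Ly6a* (chr15:74994877-74998031, minus strand), the stem cell antigen Sca-1, stood at 316 per 100000 in the Pi16 Igfbp6 cells of mouse A and 264 in mouse G. The crypt-type cells held 76.6, 97.9 and 107 in mice A, E and G, and the contractile cells 64.3. The Pi16 Igfbp6 sums were above all other sums, with a log2 fold change of 1.61 ± 0.66 against crypt-type cells that did not pass the adjusted p (0.938, edgeR). *Ly6a* was seen in 55 of 68 cells (80.9%) and in 79 of 173 crypt-type cells (45.7%). *Tppp3*, a tubulin-binding protein, stood at 148 and 109 per 100000 in mice A and G, against 39.4, 0 and 29.2 in the crypt-type cells and 4.43 in the contractile cells (2.02 ± 0.74 against crypt-type cells). *Anxa3*, an annexin that binds membranes in the presence of calcium, stood at 70.3 and 30.4 per 100000 against 8.76, 0 and 11.05. *Fstl1*, a secreted follistatin-like protein, stood at 218 and 304 per 100000 against 70.1, 42.0 and 138 (1.48 ± 0.66).

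Other genes of the list separated the classes less. *Cd34*, a surface sialomucin of fibroblasts and endothelium, was seen in 51 of 68 cells (75.0%) and in 88 of 173 crypt-type cells (50.9%), but its level in the crypt-type cells of mouse E, 154 per 100000, was close to the 158 of the Pi16 Igfbp6 cells of mouse G. *Dpt*, the matrix protein dermatopontin, was in 67 of 68 cells at 351 and 470 per 100000 and stood at 336 to 480 in the crypt-type cells. *Dpp4*, the peptidase that marks adventitial fibroblasts in other tissues, had 6 UMIs in 6 of 68 cells (8.82%) and 3 UMIs in 3 of 173 crypt-type cells, too few for the test. *Has1* was not in the table and was not analysed here. Against contractile cells 18 of the 19 genes were higher, with a median log2 fold change of 3.36, 12 had an unadjusted p under 0.05 in that direction, where 2.16% of all genes were, and 1, *Gsn*, passed.

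**Figure D3:**
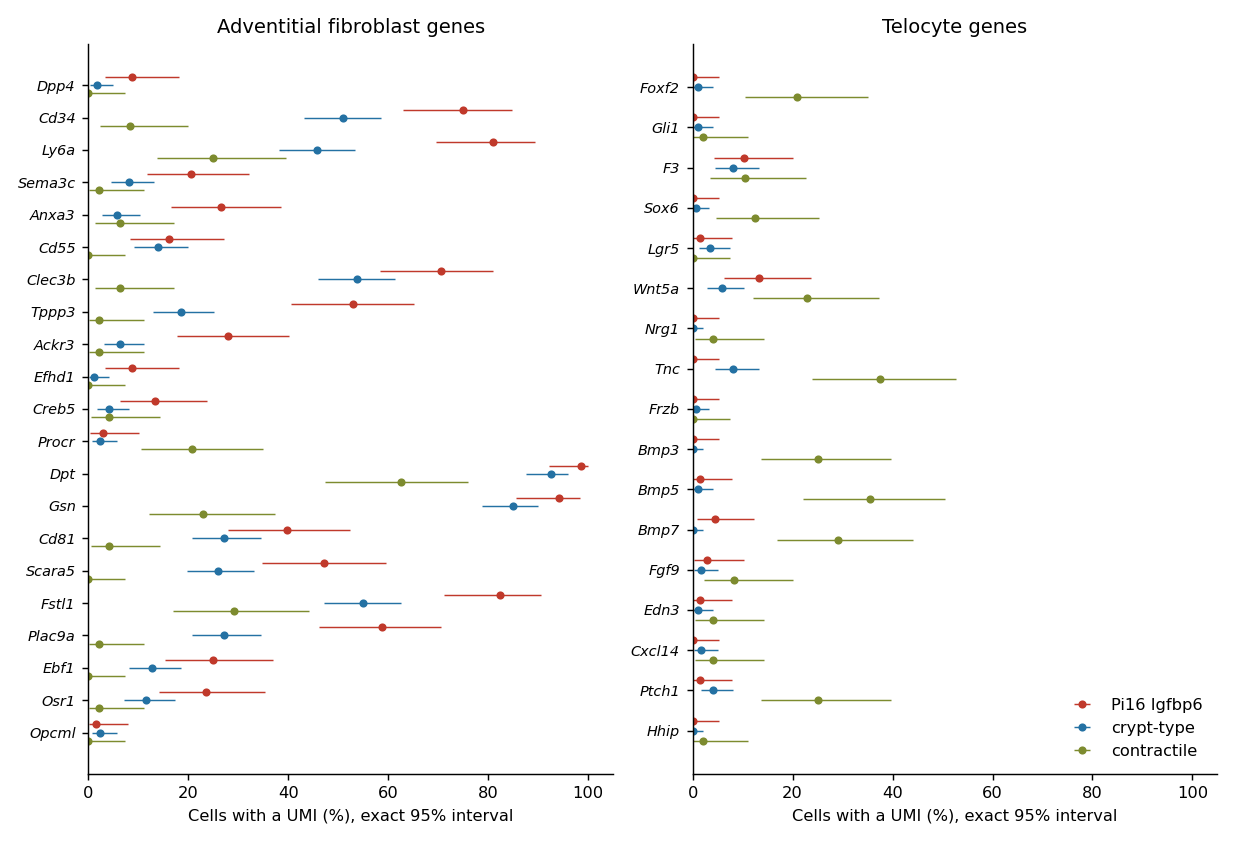
Points give the share of cells with a UMI of each gene in percent, with exact 95% intervals, for Pi16 Igfbp6 (red, 68 cells), crypt-type (blue, 173) and contractile cells (green, 48). On the left, adventitial genes such as *Ly6a* (80.9% against 45.7% in crypt-type cells) were seen in more of the Pi16 Igfbp6 cells, and on the right most telocyte genes had their highest share in the contractile cells. Intervals cover counting error only.

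Microfibrils are bundles of fibrillin and its partners that scaffold elastic fibres. The 17 tested genes of this list were split, with 8 higher and 9 lower than in crypt-type cells and a median log2 fold change of -0.03. *Mfap5* (chr6:122505845-122529290, plus strand) stood at 127 and 165 per 100000 in the Pi16 Igfbp6 cells of mice A and G and at 48.2, 0 and 48.1 in the crypt-type cells of mice A, E and G (log2 fold change 1.80 ± 0.70, adjusted p = 0.938, edgeR). It was seen in 48 of 68 cells and in 41 of 173 crypt-type cells. *Fbn1*, fibrillin-1, stood at 112 and 171 against 76.6, 84.0 and 109, so that the lower Pi16 Igfbp6 sum was only just above the highest crypt-type sum. *Emilin2* was seen in 16 of 68 cells (23.5%) and in 16 of 173 crypt-type cells (9.25%). *Fbln1*, fibulin-1, went the other way, with 42.2 and 55.9 per 100000 against 252, 196 and 238 (-2.15 ± 0.74, adjusted p = 0.9, edgeR), and the classes did not overlap. *Mfap4* stood at 0 and 15.8 against 61.3, 84.0 and 31.8. Within the fibulins, *Fbln2* was higher in the Pi16 Igfbp6 cells of each mouse than in crypt-type cells of the same mouse, with 49.2 against 10.9 in mouse A and 77.8 against 50.04 in mouse G.

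Collagen genes other than those of the rule were lower for 12 of 15, with a median log2 fold change of -0.21, and none was higher in both mice. *Col6a1*, a chain of the beaded-filament collagen VI, stood at 176 and 140 per 100000 against 164, 182 and 159, so the classes overlapped. *Col18a1*, a basement membrane collagen, had 1 UMI in 68 cells against 37 in 173 (-4.18 ± 1.46, adjusted p = 0.921, edgeR). Matrix turnover genes were split, 11 higher and 8 lower. *Timp2*, an inhibitor of metalloproteinases, stood at 98.4 per 100000 in the Pi16 Igfbp6 cells of mouse A, close to that in its crypt-type cells (98.5), and at 266 against 162 in mouse G. *Timp3* stood at 63.3 and 47.4 against 19.7, 13.99 and 14.9 (1.61 ± 0.86). None of the tested collagen or turnover genes passed the adjusted p in either comparison, and the counts at an unadjusted p under 0.05 against crypt-type cells were 1 and 1, both lower, where 4.0% of all genes were lower. Against contractile cells 3 collagen genes were higher and 2 lower at that p, and 2 turnover genes each way, where 2.16% of all genes were higher and 4.33% lower.

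**Figure D4:**
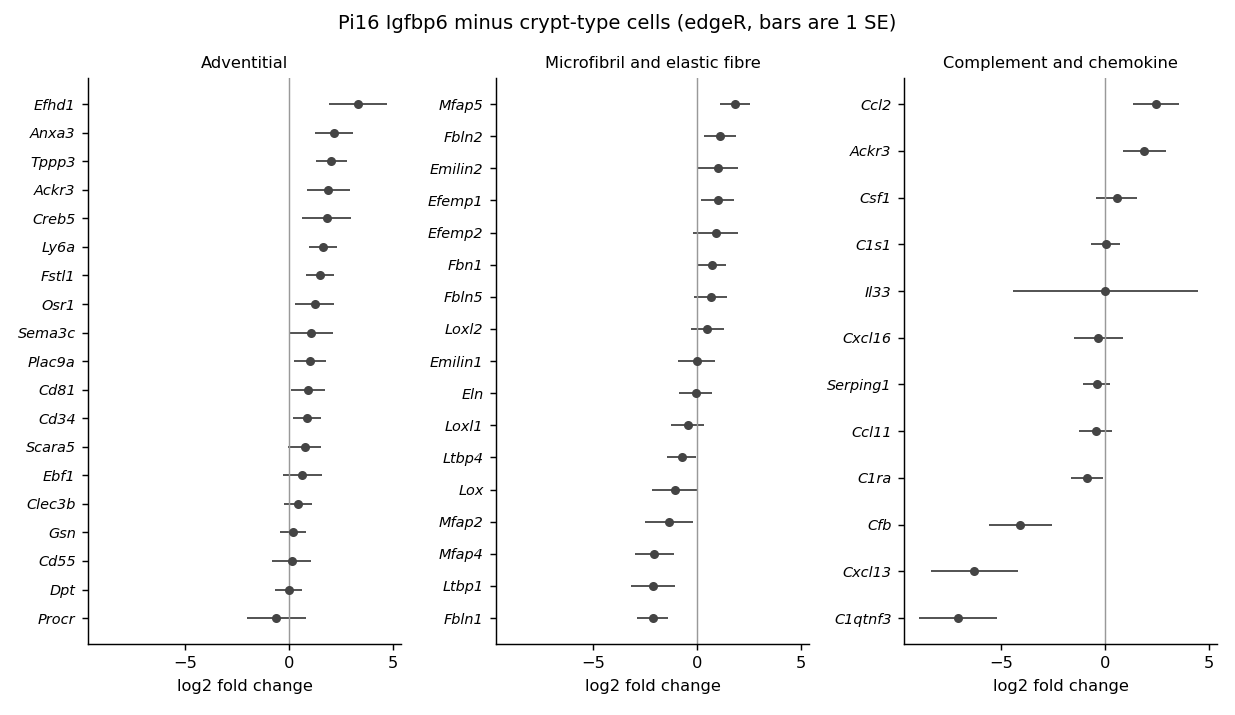
Points are log2 fold changes of Pi16 Igfbp6 over crypt-type cells from edgeR, with bars of 1 SE, for the tested adventitial (left) and microfibril and elastic fibre genes (middle) and for 12 complement and chemokine genes (right). Of the adventitial genes 17 of 19 lie above 0, of the microfibril genes 8 of 17, and of the complement and chemokine genes shown 5 of 12, with *C1qtnf3* and *Cxcl13* lowest.

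Complement and chemokine genes were higher for 5 of 13 and lower for 8, with a median log2 fold change of -0.42. *C1qtnf3*, a secreted relative of complement C1q, had no UMI in the Pi16 Igfbp6 cells and 28.1 per 100000 in the summed crypt-type cells, at least 9.03-fold lower (adjusted p = 0.156, edgeR). *Cxcl13*, the chemokine that attracts B cells, was at least 4.20-fold lower, with 27 UMIs in 13 crypt-type cells. *Cfb*, complement factor B, had 1 UMI against 47. *Serping1*, the C1 inhibitor, was in contrast common in both classes, with 358 and 185 against 385, 350 and 328. *Ackr3*, a scavenging receptor of CXCL12, was seen in 19 of 68 cells (27.9%) and in 11 of 173 crypt-type cells (6.36%). All 24 UMIs of *Ccl2* lay in 1 cell. *Il33* stood at 63.3 per 100000 in mouse A and 2.43 in mouse G, and no direction can be read from it.

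Signalling genes were sparse. Of 18 Wnt and R-spondin genes 7 had enough UMIs for the test, and none passed. *Wnt5a* stood at 7.03 and 15.8 per 100000 in mice A and G against 0, 0 and 7.15 in the crypt-type cells and 48.7 in the contractile cells (1.46 ± 1.06 against crypt-type cells, adjusted p = 1, edgeR). *Dkk2*, a Wnt antagonist, had no UMI against 22 in crypt-type cells, at least 3.42-fold lower, and *Fzd1*, a Wnt receptor, stood at 14.1 and 2.43 against 35.0, 13.99 and 22.1. *Rspo3*, which amplifies Wnt signals, was seen in 2 of 68 and 3 of 173 cells. Of 13 BMP and TGF beta genes 4 were higher and 8 lower than in crypt-type cells (median log2 fold change -0.40), and 1 had a fitted fold change of 0 from no UMI in either class. *Bmp2* had no UMI in 68 cells and 9 in 173. *Bmp4* stood at 0 and 1.22 against 32.8, 42.0 and 17.5 (-4.38 ± 1.42, adjusted p = 0.767, edgeR). *Bmp7*, 1 of the 4 that were higher, had 5 UMIs in 3 of 68 cells and none in crypt-type cells. Of the 9 tested telocyte genes 3 were higher and 5 lower than in crypt-type cells, with a median log2 fold change of -0.0035. Within mice A and G the median log2 ratios were 0.95 and 0.90, but no direction can be read from them. Part of a UMI was added to each sum. Since the Pi16 Igfbp6 sums are the smaller, this puts a gene without UMIs in either class above 0. None of the 9 was higher than in contractile cells and all 9 were lower, with a median log2 fold change of -5.17. Of them 1 (*Tnc*) passed and 7 had an unadjusted p under 0.05 in that direction, where 4.33% of all genes did. Without the contractile sum *Bmp3*, *Sox6*, *Foxf2*, *Bmp5* and *Bmp7* would have missed the UMI minimum of the test. That sum held 11, 9, 13, 22 and 23 UMIs of them, the Pi16 Igfbp6 sums 0, 0, 0, 1 and 5. The minimum thus favoured a lower level, and these counts and the median do not measure the list. *F3*, *Wnt5a*, *Tnc* and *Ptch1* met it without the contractile sum and were also lower (-0.82, -1.98, -8.48 and -4.29).

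Growth factor and binding protein genes were lower for 10 of 13, with a median log2 fold change of -1.01. *Igfbp7* stood at 162 and 152 per 100000 against 412, 224 and 285, and the classes did not overlap. *Angptl2* stood at 7.03 and 15.8 against 39.4, 13.99 and 61.7, with an overlap through the crypt-type cells of mouse E. *Igfbp4*, another binding protein of insulin-like growth factors, stood at 105.4 and 136 against 70.1, 84.0 and 94.9. *Angptl4*, an inhibitor of lipoprotein lipase, was seen in 20 of 68 cells (29.4%) and in 24 of 173 crypt-type cells (13.9%), at 35.1 and 49.8 against 6.57, 0 and 26.0 per 100000. Lipid and retinoid genes were split, 4 higher and 5 lower. *Apoe*, apolipoprotein E, stood at 0 and 9.72 against 59.1, 13.99 and 84.5 (-3.01 ± 0.99, adjusted p = 0.767, edgeR).

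S100 proteins bind calcium, and annexins bind membranes in its presence. Of 10 tested genes of these families 8 were higher than in crypt-type cells, with a median log2 fold change of 1.00, 4 were higher in both mice, and none passed the adjusted p. Within mouse A the median log2 ratio of the list was 0.02, and within mouse G it was 1.24. *S100a6* stood at 302 and 403 per 100000 in the Pi16 Igfbp6 cells against 116, 56.0 and 153 in the crypt-type and 75.3 in the contractile cells (1.57 ± 0.65 against crypt-type cells, adjusted p = 0.938, edgeR). It was seen in 61 of 68 cells (89.7%) and in 95 of 173 crypt-type cells (54.9%). *Anxa1* stood at 91.4 and 117 against 32.8, 56.0 and 50.7. Immediate early genes, which rise within minutes of tissue handling, were higher for 7 of 11 and lower for 4, and none had an unadjusted p under 0.05 against crypt-type cells. *Fos* was seen in 3 of 68 cells and *Jun* in 5.

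The most abundant genes outside the rule, chosen after their values were seen, were matrix and housekeeping genes. *Gsn* led with 894 UMIs in 64 of 68 cells. *Sparc*, a collagen-binding matrix protein, stood at 928 per 100000 in mouse A and 588 in mouse G, and *Vim*, the intermediate filament vimentin, at 197 and 360. Of the mesenchymal genes of the rule, *Dcn* stood at 984 and 852 per 100000 against 1594, 1399 and 1727 in the crypt-type cells, and *Col1a1* at 373 and 205 against 396, 490 and 757. Both were lower in the Pi16 Igfbp6 cells than in the crypt-type cells of the same mouse. Few cells held genes of the cell cycle. *Mki67* was seen in 1 of 68 cells with 9 UMIs, *Top2a* and *Cdk1* in none (a limit of 4.41% on cells with a UMI), and *Pcna* in 4.

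Genes of other cell types were scarce in the 68 cells. The 15 epithelial genes summed to 118 per 100000 UMIs, against 106 in crypt-type, 165 in contractile and 6774 in epithelial cells, and a UMI of any was seen in 19 of 68 cells. *Krt18*, *Cdh1* and *Phgr1* were at 0. The sums were 49.2 per 100000 in mouse A, whose cells mostly came from doublet gates, and 35.2 in mouse G, and most of the 118 UMIs lay in the 3 cells of mice B, E and H, which enter no sum. The 14 immune genes had 5 UMIs in all, the 11 endothelial genes 1, with *Cdh5*, *Kdr*, *Cldn5* and *Plvap* at 0, and the 6 mesothelial genes 4, with *Msln*, *Upk3b* and *Lrrn4* at 0. The pericyte genes had 7 UMIs, all in 1 cell, with *Cspg4* at 0. Mitochondrial genes took 2.27% of the UMIs of the Pi16 Igfbp6 cells, 2.68% in crypt-type and 3.57% in contractile cells, and the part of depth and of this share in the differences was not tested.

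The LCM samples measured the same genes in whole stroma of each zone, independently of the rule on cells. Values are parts per 1e6 (ppm) of the listed genes after enterocyte genes were removed, and sections of 1 mouse were averaged. In such bulk samples fewer cells of a type and less RNA per cell cannot be told apart. *Cd248* was not analysed here, since the LCM table does not list it among its genes. *Igfbp6* at the villus tip was 5.65, 0, 33.6, 0 and 0 ppm in mice 1 to 5. In the crypt it was 36.9, 0 and 39.8 ppm in mice 1 to 3, and at the villus bottom 2.19, 0, 11.5, 0 and 0. The highest values lay in the villus center, with 2038, 0, 89.9, 446 and 0 ppm, and the zones overlapped, since each held a mouse at 0. The 2038 ppm of mouse 1 is the mean of a section at 4059 ppm and another at 17.0 ppm. The values of mice 3 and 4 there come from a single section each. None of mice 1 to 3 had a higher level at the tip than in its crypt.

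*Pi16* at the villus tip was 2.11, 7.49, 42.4, 200.5 and 17.4 ppm in mice 1 to 5. The crypt held 9.001, 50.7 and 10.9 ppm, the villus bottom 5.40, 16.5, 15.6, 55.0 and 27.2, and the villus center 2.33, 4.48, 15.2, 93.9 and 41.3. Mouse 4 was the highest in all 3 villus zones, and the zones overlapped throughout. *Ly6c1* was 0.561, 0, 98.5, 4.94 and 15.9 ppm at the villus tip, 11.3, 121 and 36.1 in the crypt and 30.6, 45.7, 80.9, 386 and 17.4 at the villus bottom. The tip was below the villus bottom in 4 of 5 mice. *Penk* was at 0 in 4 of 5 mice at the tip and at 0.0829 ppm in the other. For comparison, *Lgr5* at the tip was 0.924, 2.79, 43.4, 17.7 and 334 ppm. In the crypt it was 1.67, 25.4 and 4.35 ppm in mice 1 to 3, above the tip in mice 1 and 2 and below it in mouse 3. The villus bottom held 3.59, 1.96, 3.44, 12.8 and 16.7 ppm, above the tip in mouse 1 and below it in the other mice.

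None of the 4 genes passed an adjusted p between the tip and the crypt or the villus bottom, and the tip was not tested against the villus center. The log2 difference of the tip over the crypt after adding 1 ppm, which shrinks differences between low values, was -1.96 for *Igfbp6* (95% interval -6.05 to 2.13, limma), -2.47 for *Ly6c1* (-5.85 to 0.91), 0.21 for *Pi16* (-2.30 to 2.72) and -0.65 for *Penk* (-2.96 to 1.67). Two-sided exact permutation tests over mice gave p = 0.286, 0.25, 0.893 and 0.75 in this order, and the smallest p that 5 tips and 3 crypts can give is 0.0179. These tests treat the zones as separate animals, although they come from the same mice. With mouse as a block the log2 differences over the crypt were -1.19, -2.91, -0.79 and -0.51, so that the sign of *Pi16* turned, and none passed (adjusted p = 1.00, limma). Against the villus bottom the log2 differences were 0.51, -3.15, 0.11 and -1.29, with exact permutation p = 0.841, 0.0794, 0.913 and 0.0476. The smallest of the 8 was 0.317 after Benjamini-Hochberg adjustment of the exact permutation tests. Across 13535 genes tested with limma, none passed an adjusted p of 0.05 between tip and crypt (0.0%) or between tip and villus bottom (0.0%), and 441 (3.26%) and 620 (4.58%) had an unadjusted p under 0.05. The intervals of the 4 genes are wide.

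**Figure D5:**
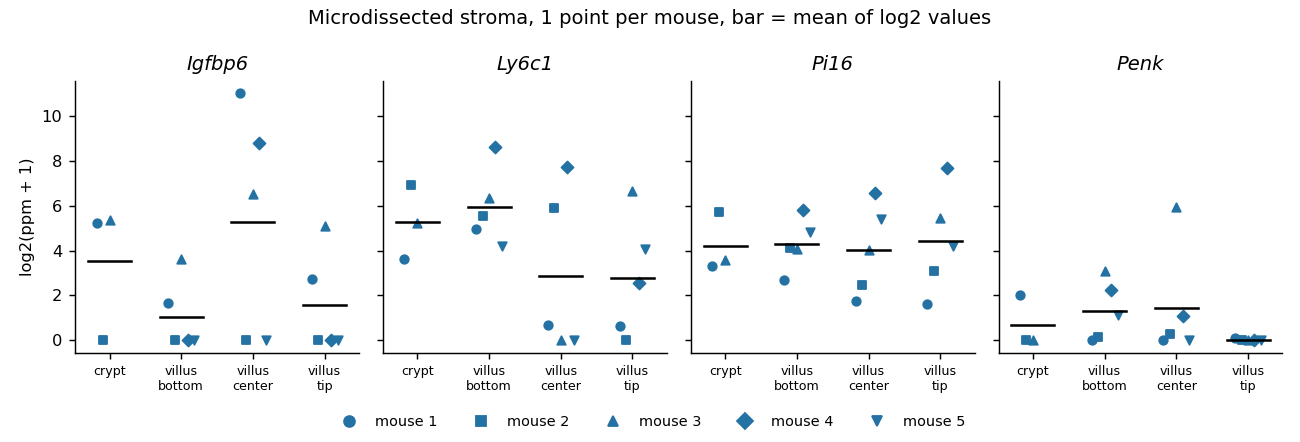
Each point is 1 mouse (mean of its sections), with the zone of the microdissected stroma on the x axis and the level as log2(ppm + 1) on the y axis, and the bar is the mean over mice of the log2 values. *Igfbp6* is highest in the villus center of mouse 1 (2038 ppm, the mean of sections at 4059 and 17.0 ppm) and at 0 in some mice of every zone. The zones overlap for *Ly6c1* and *Pi16*.

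In the epithelial preparations of the ablation experiment the defining genes were close to the limit of counting, and no test was made. *Igfbp6* had 0, 2, 12 and 13 UMIs in the 4 control samples, of 748458 to 4210158 UMIs in all, and 1, 1, 5 and 1 in the 4 samples collected 48 h after DT. *Penk* summed to 6 UMIs in the controls and 1 after DT, *Ly6c1* to 0 and 2, and *Cd248* to 1 and 0. *Pi16* had no UMI in any of the 8 samples. With so few UMIs and no test, neither a change of the Pi16 Igfbp6 fibroblasts after DT nor its absence can be read from these samples.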

How the data were processed

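For single cells and epithelium the authors counted UMIs with zUMIs on GRCm38 and deposited raw UMI counts per gene. For the LCM stroma the authors pseudoaligned reads to coding transcripts with kallisto and deposited TPM, which keeps no read depth. The submitters' processing notes also name bcl2fastq 2.15.0.4. The background subtraction of the study's cell analysis was not applied. Of 12698 wells, 352 on 1 plate matching no sample were not used. The members and gene lists were chosen with earlier results of these data known.

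UMI counts were summed per mouse and class and tested with edgeR 4.0.16 (TMM, robust quasi-likelihood, Benjamini-Hochberg) for 5223 genes with at least 10 UMIs over the sums, without the 21 rule genes. LCM values were scaled to ppm after 378 enterocyte genes were removed, and 13535 genes with a zone mean above 5 ppm were tested with limma 3.58.1 on log2(ppm + 1). DESeq2 1.42.0, other normalization, filters, margins and left-out mice were alternatives. Cells or sections of 1 mouse are not replicates. Classes of the same animal came from mice A and G, with correlations of deviations of 0.0263 and 0.166, and LCM zones from the same 5 mice.

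Genes named are the rule genes, genes the study names for villus tip telocytes, up to 10 risen and 10 fallen genes (5 and 5 for contractile cells) past the adjusted p with 1 direction in every mouse, and members of the lists described. On simulated data with 200 genes changed by 3 or 6 (log2), edgeR (5108 and 5121 genes) recovered 21% and 77% against crypt-type cells and 0% and 67.5% against contractile cells. Limma (12487 and 12479 genes) recovered 0.5% and 71.5% for tip against crypt and 17.5% and 79% for tip against villus bottom. The changed genes were drawn only from those with more UMIs, or a higher mean ppm, than the tests required. Recovery of the sparser genes was not measured. Of the complement list 1 gene is counted but not reported here by name. Coordinates are from GENCODE on GRCm38.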

Additional observations from a re-analysis of the deposited data

Results flagged for a closer look

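In the LCM stroma and the epithelial samples, 1 sample lay far from the others of its group in 16 of the 27 groups of values looked at. The rule flags about 1 in 20 groups of normally distributed values. These groups were unlogged ppm or UMIs, and several were mostly 0, where any other value is flagged. The share flagged can therefore not be set against 1 in 20. *Igfbp6* was far above the other mice in mouse 3 at the villus bottom (11.51 ppm) and the villus tip (33.62 ppm). In mouse 1 it was so in the villus center (2038 ppm, the mean of sections at 4059 and 17.0 ppm). *Ly6c1* was so in mouse 4 at the villus bottom (385.6 ppm) and center (207 ppm) and in mouse 3 at the tip (98.45 ppm). *Pi16* was so in mouse 4 at the tip (200.5 ppm), *Penk* in mouse 3 in the center (60.87 ppm) and in mouse 1 at the tip (0.08292 ppm, the others at 0). *Lgr5* was far below the others in mouse 1 in the center (0.516 ppm) and far above them in mouse 5 at the tip (334.3 ppm). *Mfap5* was far above in mouse 1 in the center (35.97 ppm) and mouse 3 at the tip (25.98 ppm). In the epithelium single samples held 5 UMIs of *Igfbp6* after DT, 1 of *Cd248* among controls and 1 of *Penk* after DT. These counts were not scaled to depth, and the DT sample with 5 UMIs was the deepest of the DT samples (3766530 UMIs). Mouse 3 was the highest at the villus tip for *Igfbp6*, *Ly6c1* and *Mfap5*. The cause of these values was not tested.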

How the results depend on the processing

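The number of Pi16 Igfbp6 cells was 68, and 57 to 74 in 5 of the 7 alternatives. It was 24 without the plate that held most of them and 124 with *C3* left out of the crypt-type sum. Both of these, and the setting without *Penk* in the member sum that gave 57, were chosen after seeing the data. The counts of genes that passed moved with nearly every setting. Against crypt-type cells the count was 1, and it was 5 with DESeq2, 7 with RLE size factors, 0 with no filter on low counts, 8 with 10 cells needed per sum, 0 with 2 cells needed, 3 with a margin of 2 UMIs, and 0 without *Ly6c1* in the member sum. Among settings chosen after seeing the data it was 2 without *Penk*, 7 without *C3* in the crypt-type sum and 0 with wells of 200 or more UMIs. Against contractile cells the count was 9, and it was 21 with DESeq2, 36 with RLE size factors and 1 with no filter. Among settings chosen after seeing the data it was 77 with 10 cells needed, 0 with 2 cells needed, 2 without the doublet gates, 0 without *Penk*, 21 without *C3* and 3 with wells of 200 or more UMIs. With mice left out in turn the counts were 0 to 8 against crypt-type cells (8 without mouse E, 0 without mouse A or G) and 4 to 77 against contractile cells (77 without mouse E, 4 without mouse G). A fit without mouse A has no contractile cells. The replicate block on mouse gave 9 against crypt-type cells, *Tmem176b*, *Mgp* and *Adamdec1* among them, and 29 against contractile cells, with all 9 genes of the fit without the block included, and it changed no call in the LCM comparisons. *Mgp* passed against crypt-type cells under the block (-1.89), DESeq2 (-1.92), RLE factors (-1.91) and without mouse E (-1.90). Of the 550 fold changes of named genes, 63 lost and 14 gained the adjusted p. None that passed in the main fit or in the alternative changed its sign. Changes of sign among those that passed in neither were not counted. In the LCM data 2 genes passed between tip and crypt with no filter on low values. The cause of these moves was not tested. The 68 cells held 99965 UMIs, of which *Pi16* had 33 and *Lgr5* had 1, and the part of depth in these low counts was not tested.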
